A study of Homo sapiens with 6 samples.

Results

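The genes described here are the multidomain members of the BCL2 family that decide whether the outer mitochondrial membrane is kept closed or opened during apoptosis. They comprise 5 guardians, BCL2, BCL2L1, BCL2L2, MCL1 and BCL2A1, and 3 effectors, BAX, BAK1 and BOK. They were taken by their symbols, and all 8 were found once each among the 58735 genes of the count table. The study sequenced mRNA from MOLM-13, an established human acute myeloid leukaemia line known for its KMT2A-MLLT3 fusion and FLT3 duplication. One group of 3 cultures received 8p at 3.5 nM for 48 hours, a synthetic compound that inhibits RET and CDK kinases according to the design text and RET and CDK8 according to the treatment label, with a stated IC50 of 7 nM. The other group of 3 cultures was untreated and kept for the same 48 hours. Both groups carry the genotype label WT, come from this 1 cell line and were grown in the same medium. Whether the control cultures received the solvent of 8p is not stated.

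Guardian proteins hold the effectors in check by binding the BH3 segment of pro-apoptotic relatives. BH3-only proteins, produced or unleashed under stress, occupy the guardians or engage the effectors directly. Freed BAX and BAK assemble in the outer mitochondrial membrane and let cytochrome c into the cytosol, where it drives caspase activation. Myeloid leukaemia cells commonly depend on BCL2 and MCL1, and both proteins are targets of BH3-mimetic drugs such as venetoclax, which binds BCL2.

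With 8p, the RNAs of BAX and BAK1 moved in opposite directions and none of the 4 tested guardians passed the test. BAX rose 1.32-fold and BAK1 fell to 0.608 of its control level. Of the 8 genes, 6 had enough counts to be tested, and 2 of these 6 (33.3%) were called, 1 higher and 1 lower. Among all 13822 genes tested the called share was 74.7%, with 37.9% higher and 36.9% lower with 8p. A gene was called at an adjusted p under 0.05 in the quasi-likelihood test of edgeR, adjusted over all genes tested. The values of both groups did not overlap for 2 of the 6 tested genes, against 77.0% of all genes tested. BAX and BAK1 were called in each of 15 alternative fits of the data. The median log2 fold change was −0.06 over the 6 genes and 0.03 over all genes tested, where the median absolute change was 0.75. In bulk RNA, fewer cells of a type and less RNA per cell cannot be told apart.

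**Figure D1:**
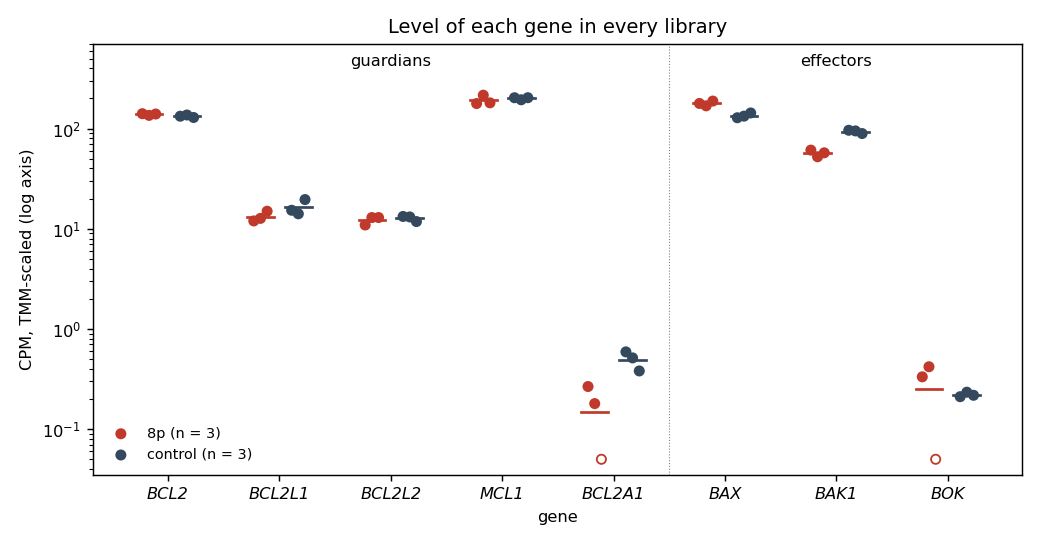
Level of the 5 guardians and 3 effectors in each of the 6 libraries, in CPM (counts scaled to library size) on a log axis, with 8p left of control. Filled points are libraries, open points at the foot are libraries with no count, drawn at an arbitrary height, and lines are means; BAX sits higher and BAK1 lower in every 8p library than in any control library.

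Libraries held 14972069 to 16210861 counts with 8p and 18834611 to 23485628 counts without, so genes with few counts were less precise in the 8p libraries. Mitochondrially encoded genes took 6.42% to 10.004% of counts with 8p and 1.64% to 1.91% in controls, with the 6.42% in 8p replicate 2. All 13 myeloid leukaemia markers passed the low-count filter, 8 higher and 3 lower with 8p. CD33, MPO and HOXA9 were lower, and ITGAM and MEIS1 were not called. The summed level of the markers was 5393 to 6013 CPM with 8p and 2331 to 2465 CPM in controls. LYZ held most of that sum with 8p, at 3308 to 3973 CPM against 972 to 1083 CPM in controls. ANPEP, which encodes the myeloid antigen CD13, was at 0.659 to 2.16 CPM with 8p and at 0 to 0.187 CPM in controls, so this marker was close to absent in controls. Erythroid and megakaryocyte markers summed to at most 0.742 CPM with 8p and 0.218 CPM in controls, with 4 of 7, among them HBB, at 0 throughout. The 6 B cell markers summed to 3.42 to 4.39 CPM with 8p and 2.29 to 3.05 CPM in controls, with PAX5 at 0. Of 7 T and NK cell markers, 3 were tested, 1 higher and 2 lower with 8p, and CD8A was at 0. NKG7 rose, with 28.8 to 37.5 CPM with 8p and 18.5 to 21.0 CPM in controls. TRAC, at 3.60 to 6.41 CPM with 8p and 12.1 to 13.5 CPM in controls, and CD3D fell. Summed levels were 33.0 to 44.4 CPM with 8p and 34.4 to 36.7 CPM in controls. The marker counts stand beside the called share of 74.7% over all genes tested. Epithelial and fibroblast markers summed to 31.7 to 42.0 CPM with 8p and 9.74 to 10.3 CPM in controls. COL1A1 held most of that sum with 8p, while EPCAM, COL1A2, COL3A1 and DCN were at 0. The part of these cell markers and of the mitochondrial share in the results on the BCL2 family was not tested.

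Levels of different genes were compared as TPM, which divides counts by the deposited gene length and scales them to a common sum within a library. In the 8p libraries the order of mean TPM was BAX (205 ± 8.66, SD, n = 3), MCL1 (131 ± 25.3), BAK1 (76.1 ± 2.22), BCL2 (35.01 ± 2.05), BCL2L1 (11.8 ± 1.41), BCL2L2 (8.72 ± 1.33), BCL2A1 (0.409 ± 0.362) and BOK (0.283 ± 0.257). In control libraries the order was the same, with BAX at 174 ± 4.42 TPM, MCL1 at 153 ± 5.23, BAK1 at 141 ± 9.94 and BCL2 at 37.8 ± 2.12. Lower in that order came BCL2L1 at 16.4 ± 2.38, BCL2L2 at 10.2 ± 0.954, BCL2A1 at 1.53 ± 0.368 and BOK at 0.272 ± 0.0173 TPM. TPM are scaled to a common sum of length-divided counts and are not TMM-scaled. The change of a gene between the groups is therefore read from CPM below and not from TPM. The mean of BCL2, for example, was lower with 8p in TPM but higher in CPM (139 with 8p, 133 in controls). CPM by library totals alone, without TMM factors, kept the order of CPM (139 with 8p, 133 in controls). The opposite order in TPM thus did not come from the missing TMM factors. Neighbours in the order did not overlap in either group, except BCL2A1 and BOK with 8p. The gap between MCL1 and BAK1 was narrow in controls, where the lowest MCL1 value was 150 TPM and the highest BAK1 value 149 TPM. In the 8p libraries the lowest MCL1 value was 115 TPM and the highest BAK1 value 78.0 TPM.

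Among the guardians, BCL2 is the founding member, first found at the chromosome breakpoint of follicular lymphoma, and its protein preferentially holds BIM-type BH3 segments and BAX. The gene (ENSG00000171791) lies on the minus strand of GRCh38 chromosome 18, from 63123346 to 63320128, and its RNA reached 141, 136 and 140 CPM in the 8p replicates against 133, 137 and 129 CPM in the controls. The groups overlapped, since 8p replicate 2 lay below control replicate 2. The log2 fold change was 0.06 (SE 0.06, adjusted p = 0.399), and the 95% interval of the ratio of 8p over control ran from 0.948 to 1.15. Only 4.54% of all genes tested had a smaller absolute change than BCL2. Its call changed with upper quartile scaling, where the log2 fold change was 0.25 (adjusted p = 0.00270), a scaling that moved the median change over all genes by 0.19.

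MCL1 encodes a guardian with a short-lived protein, which binds both BAK and many BH3-only proteins and on which many myeloid cells rely. Its gene (ENSG00000143384) lies on the minus strand of chromosome 1, from 150574551 to 150579738. MCL1 reached 178, 216 and 181 CPM in the 8p replicates and 204, 194 and 204 CPM in the controls. The 8p replicate 2 value exceeded all control values, whereas the other two 8p values fell below all of them. The change was −0.06 on the log2 scale (SE 0.08, adjusted p = 0.462), and the ratio of 8p over control had a 95% interval from 0.853 to 1.07. Without 8p replicate 2 MCL1 was called lower, at −0.19 on the log2 scale (adjusted p = 0.0168). That library also had the lowest mitochondrial share of the 8p libraries. Over all genes with enough counts, a chi-square per degree of freedom measured how far the counts of 2 libraries differed. For 8p replicate 2 it was 19.4 against replicate 1 and 19.3 against replicate 3. Between 8p replicates 1 and 3 it was 2.99, and control pairs gave 3.68 to 9.96. The part of these differences in the MCL1 value was not tested.

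BCL2L1 encodes the guardian BCL-xL, known for its role in the survival of erythroid cells and platelets, and through alternative splicing also a short pro-apoptotic form. The gene (ENSG00000171552; chromosome 20, 31664452 to 31723989, minus strand) had 11.98, 12.7 and 15.0 CPM with 8p against 15.3, 14.1 and 19.6 CPM in controls. The groups overlapped, since the highest 8p value lay above the lowest control value. Its log2 fold change was −0.30 (SE 0.15, adjusted p = 0.0729), with a 95% interval of the ratio from 0.653 to 1.01. BCL2L1 was thus not called, but its outcome changed when single libraries were left out. It passed as lower without 8p replicate 3 (−0.42, adjusted p = 0.0297) and without control replicate 2 (−0.42, adjusted p = 0.0290). Without control replicate 3 its log2 fold change was −0.18 (adjusted p = 0.272). It also passed with no low-count filter (−0.42, adjusted p = 0.00668), and over all alternatives its adjusted p ran from 0.00668 to 0.487.

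BCL2L2 encodes BCL-w, a guardian best known from male germ cells and neurons of the mouse. Its gene (ENSG00000129473; chromosome 14, 23298790 to 23311759, plus strand) had 10.9, 12.9 and 13.0 CPM with 8p and 13.3, 13.1 and 11.8 CPM in controls. The groups overlapped, with 8p replicates 2 and 3 above control replicate 3. The log2 fold change was −0.06 (SE 0.13, adjusted p = 0.714), and the 95% interval of the ratio, 0.793 to 1.17, was wider than that of BCL2. HOMEZ and PPP1R3E overlap BCL2L2 on the other strand and held 156% and 51.7% of its counts, PPP1R3E sharing 206 exonic bases with it and HOMEZ none. Whether reads were counted by strand is not stated, and without strand reads from the bases shared with PPP1R3E cannot be assigned to either gene, so the level of BCL2L2 is uncertain to that extent.

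BCL2A1 encodes A1, a guardian induced by NF-kB and prominent in mature myeloid cells. In these libraries the gene (ENSG00000140379; chromosome 15, 79960889 to 79971446, minus strand) was nearly silent, with 4, 3 and 0 counts in the 8p replicates and 14, 11 and 7 counts in the controls. All 8p levels, at most 0.266 CPM, lay below the lowest control level of 0.381 CPM, but the counts were too few for the low-count filter. Summed over libraries there were 7 counts with 8p and 32 in controls, which after division by the summed TMM-scaled library sizes gave a ratio of 0.298, with an exact binomial 95% interval from 0.111 to 0.688 that covers counting error only. With no low-count filter its log2 fold change was −1.80 (SE 0.87, adjusted p = 0.0839).

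**Figure D2:**
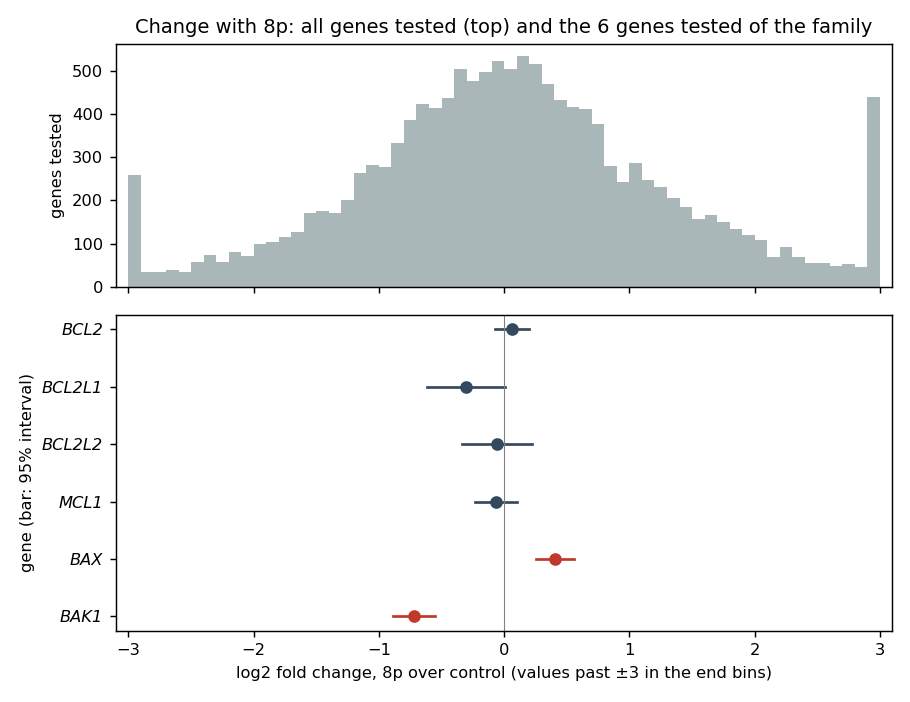
Distribution of the log2 fold change, 8p over control, over the 13822 genes tested (top) and the value of each tested guardian and effector with its 95% interval (bottom). Red marks the called genes, BAX at 0.40 and BAK1 at −0.72; the intervals of the 4 tested guardians reach across 0, and values past ±3 stand in the end bins.

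BAX and BAK are the effectors that form the pore. In healthy cells BAX shuttles between cytosol and mitochondria while BAK sits in the outer mitochondrial membrane, and in many cells either one suffices for apoptosis. BAX is also a classical transcriptional target of p53. Because their RNAs moved apart, the sequence just upstream of each gene is shown, from the promoter windows of RefSeq on GRCh38.p14. BAX lies on the plus strand and the stretch shown is chr19:48954625-48954814. BAK1 lies on the minus strand and its stretch is chr6:33580294-33580526. Both read 5′ to 3′ in the direction of the gene and end where the first annotated transcript of GENCODE begins, and capitals mark the E-box CACGTG, the palindromic element bound by basic helix-loop-helix factors such as MYC with MAX, USF and TFEB.
BAX: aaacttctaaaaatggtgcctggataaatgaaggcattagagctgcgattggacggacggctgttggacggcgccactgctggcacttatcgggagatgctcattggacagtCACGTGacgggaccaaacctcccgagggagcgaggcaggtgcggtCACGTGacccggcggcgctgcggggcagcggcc
BAK1: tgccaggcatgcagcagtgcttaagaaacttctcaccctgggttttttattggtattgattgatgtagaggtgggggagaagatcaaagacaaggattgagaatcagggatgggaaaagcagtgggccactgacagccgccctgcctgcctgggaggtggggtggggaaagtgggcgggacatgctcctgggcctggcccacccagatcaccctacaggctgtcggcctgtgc

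The BAX stretch carries 2 E-boxes, and 2 more lie between its end and the RefSeq start. Counted from that start, the first bases of the 4 elements lie at −138, −93, −45 and −14. Of 35116 RefSeq promoter windows of the same length, 7.26% hold at least 1 CACGTG and 5 windows (0.0142%) hold 4 or more. The BAK1 window holds none, nor do those of BCL2, BCL2L1, BCL2A1 and BOK, the other members among the 6 of 8 with a window in the table. GGGCGG, the GC box, read on both strands and not overlapping the E-box, occurred 2 times in the window of BAX and 2 times in that of BAK1. Of all windows, 45.0% hold at least 1 copy and 26.7% at least 2. The motifs were picked after the sequences had been read. They describe the letters of these windows and do not show that a factor binds there.

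BAX (ENSG00000087088; chromosome 19, 48954815 to 48961798, plus strand) reached 178, 169 and 188 CPM in the 8p replicates against 128, 133 and 143 CPM in the controls. Every 8p library lay above every control library, the closest pair being 8p replicate 2 and control replicate 3. The mean was 179 ± 9.77 CPM with 8p and 135 ± 7.63 CPM in controls (SD, n = 3 each). Its log2 fold change was 0.40 (SE 0.07, adjusted p = 9.65e-05), with a 95% interval of the ratio from 1.19 to 1.47. This was a small change for these data, since 29.3% of all genes tested had a smaller absolute change. Over the alternatives the log2 fold change ran from 0.29 to 0.59.

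BAK1 (ENSG00000030110; chromosome 6, 33572547 to 33580293, minus strand) reached 61.0, 52.4 and 57.3 CPM with 8p against 96.3, 94.9 and 89.3 CPM in controls. The groups were far apart, with the highest 8p value well below the lowest control value. BAK1 averaged 56.9 ± 4.34 CPM with 8p and 93.5 ± 3.70 CPM in controls (SD, n = 3 each), a fall of 0.72 on the log2 scale (log2 fold change −0.72, SE 0.08, adjusted p = 6.55e-07). The 95% interval of its ratio ran from 0.542 to 0.683, and 48.3% of all genes tested had a smaller absolute change. The alternatives gave log2 fold changes between −0.83 and −0.53. No gene overlapping BAX or BAK1 held 10% of its counts.

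BOK, an effector kept low by degradation at the endoplasmic reticulum and able to act without BAX and BAK, was close to silent. The gene (ENSG00000176720; chromosome 2, 241551424 to 241574138, plus strand) had 5, 7 and 0 counts in the 8p replicates and 5, 5 and 4 counts in the controls. In 8p replicate 3, no count of either BOK or BCL2A1 was found, which allows up to 0.202 CPM of each there. The sums, 12 counts with 8p and 14 in controls, gave a ratio of 1.17 after division by the summed TMM-scaled library sizes (exact binomial 95% interval 0.494 to 2.72, counting error only), so a difference of BOK was not detectable at this depth.

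Ratios between genes of the same library do not depend on how libraries are scaled. BAX over BAK1, in TPM, was 2.50, 2.76 and 2.81 in the 8p replicates against 1.14, 1.201 and 1.37 in the controls. The mean ratio was 2.69 ± 0.166 with 8p and 1.24 ± 0.121 in controls, 2.17-fold apart with no overlap. In an exact two-sided permutation test over the 6 libraries this gave p = 0.1, the smallest p that 3 against 3 libraries allow. Because BAX was higher and BAK1 lower in every 8p library, the separation of this ratio and its p followed from those changes. They are no further evidence. BAX made up 71.3% to 73.8% of the summed effector TPM with 8p and 53.2% to 57.8% in controls, with BOK at or under 0.174% in every library.

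MCL1 was the main contributor among the guardians in every library. It contributed 68.8%, 72.6% and 68.0% of the summed guardian TPM with 8p and 70.3%, 69.5% and 69.9% in controls. BCL2 contributed 16.96% to 20.2% with 8p and 16.5% to 18.2% in controls. BCL2L1 contributed 5.64% to 7.42% with 8p and 6.67% to 8.87% in controls. For these genes and for BCL2L2 the ranges of both groups overlapped. BCL2A1 made up at most 0.413% with 8p and 0.525% to 0.819% in controls, without overlap. Shares depend on the length assigned to a gene: with the longest coding transcript in place of the deposited length, the mean share of BCL2 was 24.6% with 8p and 22.6% in controls.

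**Figure D3:**
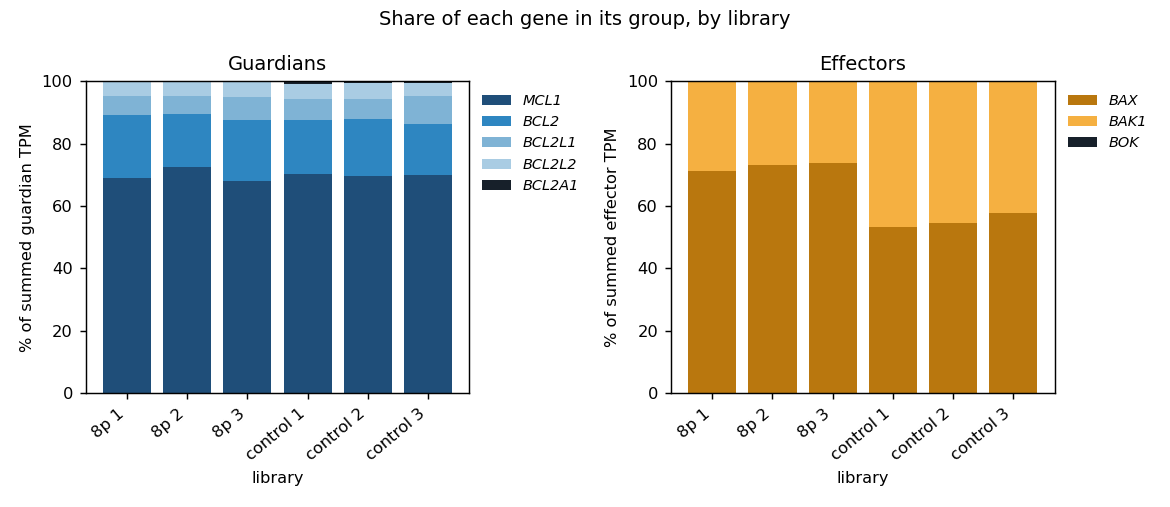
Share of each gene in the summed TPM of the 5 guardians (left) and of the 3 effectors (right), as stacked bars for each library with the 8p libraries on the left. MCL1 fills 68.0% to 72.6% of the guardian bar with 8p and 69.5% to 70.3% in controls, and BAX fills 71.3% to 73.8% of the effector bar with 8p and 53.2% to 57.8% in controls.

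Against the main guardians, BAX and BAK1 also went opposite ways, which restates their own changes, as neither BCL2 nor MCL1 was called. BAX over BCL2 was 5.76, 5.66 and 6.12 with 8p and 4.39, 4.43 and 5.05 in controls, while BAK1 over BCL2 was 2.30, 2.05 and 2.18 with 8p and 3.85, 3.69 and 3.68 in controls. Both ratios kept the groups apart, one upward and the other downward with 8p. Against MCL1, BAX averaged 1.59 ± 0.236 with 8p and 1.14 ± 0.0645 in controls, and BAK1 0.594 ± 0.103 with 8p and 0.922 ± 0.0508 in controls, also without overlap. The sum of all effectors over the sum of all guardians was 1.63, 1.31 and 1.62 with 8p and 1.41, 1.48 and 1.44 in controls. The 8p values lay on both sides of the controls, so this total showed no separation of the groups, and the low value belonged to 8p replicate 2, the library with the high MCL1 level.

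**Figure D4:**
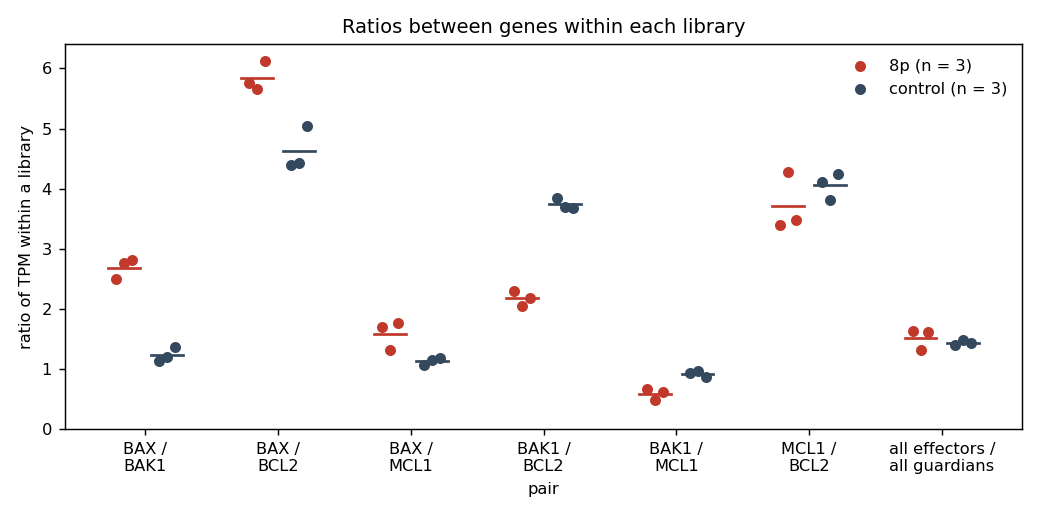
Ratios of TPM between pairs of genes within each library, with 8p left of control, points for libraries and lines for means. Ratios with BAX on top are higher with 8p and those of BAK1 over a guardian are lower, while MCL1 over BCL2 and all effectors over all guardians overlap between the groups.

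Genes that act around the guardians and effectors were counted in 5 lists, named in the order of their roles. Of 8 BH3-only genes, 7 were tested, of which 3 rose and 3 fell (median −0.08 on the log2 scale). BMF, whose protein is released from the cytoskeleton to bind guardians, had 391 ± 9.81 CPM with 8p and 26.5 ± 1.63 CPM in controls (log2 fold change 3.88), and BID, which links death receptors to mitochondria, fell by 1.16 on the log2 scale. Per length, BMF over the summed guardians was 1.15 ± 0.0644 with 8p and 0.0742 ± 0.00563 in controls. All BH3-only genes together over the summed guardians were at 2.34 ± 0.108 with 8p and 1.64 ± 0.0464 in controls. Without BMF this ratio was 1.19 ± 0.0580 with 8p and 1.57 ± 0.0434 in controls, the opposite order, and the groups overlapped in neither case.

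Of 7 other BCL2-related genes, 5 were tested, of which 3 rose and 2 fell, with a median of 0.71. BNIP3L, a mitophagy receptor of the outer mitochondrial membrane, reached 178 ± 4.17 CPM with 8p and 52.6 ± 2.17 CPM in controls (log2 fold change 1.76). BCL2L15, at 0.927 ± 0.0810 CPM with 8p and 0.327 ± 0.145 CPM in controls, rose by 1.52 on the log2 scale (adjusted p = 0.00860). AP4B1-AS1, on the other strand of the same locus, held 106% of its counts and shares 0 exonic bases with it.

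All 3 genes for VDAC, the main channel of the outer mitochondrial membrane, fell, with a median of −1.10. VDAC2, whose protein brings BAK to the membrane, had 87.2 ± 7.63 CPM with 8p and 187 ± 15.5 CPM in controls (log2 fold change −1.10). VDAC1 had 109 ± 9.32 CPM with 8p and 397 ± 6.64 CPM in controls (−1.86). Of 8 genes for factors released from mitochondria and for the apoptosome, 2 rose, 4 fell and 2 were not called, with a median of −0.17. CYCS, which encodes cytochrome c, fell by 2.31 on the log2 scale, with 84.7 ± 2.29 CPM with 8p and 419.96 ± 42.0 CPM in controls. Of 5 ubiquitin pathway genes known for the turnover of guardians and effectors, 3 rose and 1 fell, with a median of 0.29. USP9X, a deubiquitinase that stabilises MCL1 protein, rose by 0.50 (105 ± 3.14 CPM with 8p, 74.3 ± 0.369 CPM in controls). HUWE1, a ubiquitin ligase for MCL1, had 171 ± 4.86 CPM with 8p and 238 ± 25.9 CPM in controls (−0.48, adjusted p = 4.91e-05). These counts stand beside the called share of 74.7% over all genes tested.

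**Figure D5:**
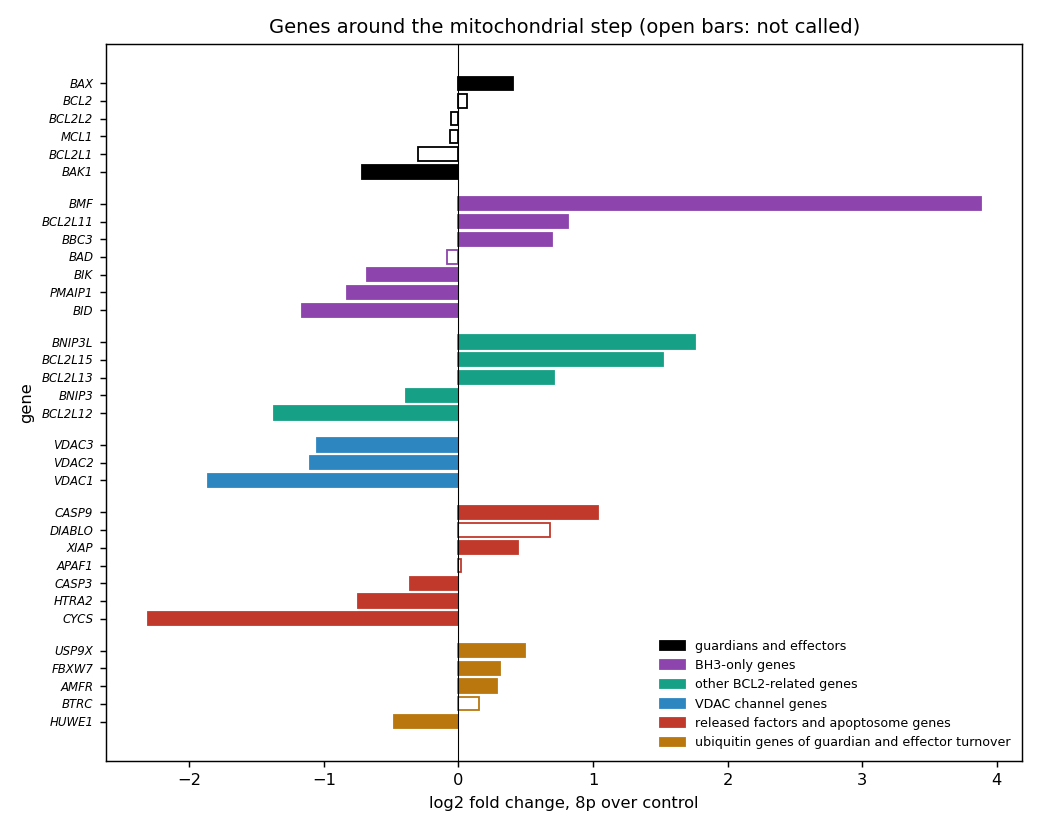
Log2 fold change, 8p over control, of the tested guardians and effectors and of genes of 5 related lists (1 tested gene is not drawn), with filled bars for called genes and open bars for genes that were not called. The bars of the guardians are short and open, while BMF (3.88) and CYCS (−2.31) mark the ends.

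The genes most alike in pattern were sought among 10236 protein-coding genes, by the distance between log2 CPM profiles over the 6 libraries after each profile was centred on its own mean. For BAX these were RNF113A (distance 0.07), ITFG1 (0.09) and UBXN11 (0.09), with log2 fold changes of 0.37, 0.45 and 0.44. For BAK1 they were SHMT1, COPG2 and POGK (each at a distance of 0.08), with log2 fold changes of −0.73, −0.75 and −0.71. The profiles compared share these 6 libraries and their depths.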

How the data were processed

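Messenger RNA of 3 cultures with 8p and 3 untreated cultures was measured. The deposited values are raw counts of reads per gene, whole numbers with no normalization. Per the submitters' processing notes, HISAT2 2.0.5, featureCounts 1.5.0-p3, DESeq2 1.20.0, edgeR 3.22.5 and the build hg38 were used. The positions and lengths deposited for all 8 genes equalled those of GENCODE release 29. Gene counts merge splice forms. The labels name poly(A) capture or removal of ribosomal RNA without saying which. The design text calls the replicates biological.

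In R 4.3.3, genes passing filterByExpr were fitted with edgeR 4.0.16 (TMM scaling, quasi-likelihood F test, group as the only term), with Benjamini-Hochberg adjustment and an adjusted p under 0.05 as the threshold. Standard errors are the log2 fold change over the square root of F, and 95% intervals use the test's degrees of freedom. CPM use TMM-scaled library sizes. No spike-in is named, so changes are relative to the other transcripts of a library. The fit was checked on simulated counts. DESeq2 1.42.0, limma 3.58.1 (voom), other scalings and filters, a block for replicate number, and each library left out were the alternatives. Binomial intervals and floors of 3 counts cover counting error only.

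All 8 genes are named, with up to 2 called genes of largest change from each related list, overlapping genes with at least 10% of a gene's counts, and the 3 genes most alike to BAX and to BAK1. The genes and lists were chosen with earlier results of these data known. For 1 gene of the related lists, values are not reported here; it is included in the list's counts and median.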

Additional observations from a re-analysis of the deposited data

How the results depend on the processing

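BAX stayed higher and BAK1 lower with 8p, both past the threshold, in all 15 alternative fits of each (BAX adjusted p from 1.64e-06 to 0.00239, BAK1 from 1.26e-20 to 1.99e-05). Of the 8 genes 2 were called; the count was 4 with no low-count filter, where MCL1 (−0.18, adjusted p = 0.0458) and BCL2L1 passed too and 42.3% of 26595 genes were called, and 0 when at least a 2-fold change was asked for, which left 5304 of 10330 genes called in all. It was 3 with upper quartile scaling, where BCL2 passed, and 2 or 3 with each library left out. BCL2L1 stayed negative in all 15 alternatives, whereas each of the other tested guardians turned sign in 1: with upper quartile scaling MCL1 (0.12) and BCL2L2 (0.13) turned positive, and with no low-count filter BCL2 was at −0.05. These 2 settings moved the median change over the genes tested in both fits by 0.19 and −0.12, and 59.4% and 48.0% of called genes were higher with 8p, against 50.6%. With the replicate number as a block, 10090 genes and 2 of the 8 were called. Same-numbered libraries did not deviate together (correlations −0.01, −0.02 and −0.04). With 3 libraries per group, this shows no pairing by number but cannot exclude it. Per longest coding transcript, chosen after seeing the data, effectors over guardians averaged 2.08 with 8p and 1.79 in controls. The groups overlapped here too, at 1.81 to 2.22 with 8p and 1.73 to 1.83 in controls. Depth limits BCL2A1 and BOK, which had 39 and 26 counts in all.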
